A study of Sus scrofa with 22 samples.

Results

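Muscle draws on glycolysis, the cytosolic breakdown of glucose to pyruvate, for fast energy, and the transcripts of 6 enzymes in or beside that pathway were followed through pig development. The genes were GPI, PFKM, GAPDH, PGAM2, ENO3 and GPD1. They were chosen by their gene symbols alone: every probe set of the array that the annotation gave to a single one of these symbols was taken, and the array's own control probe sets were left out. This found 10 probe sets, 5 of them for GAPDH and 1 for each of the other genes, among 23999 tested probe sets with 6765 single gene symbols. Transcripts were measured on an Affymetrix porcine array in 22 animals, 1 array each, at 4 stages: fetuses 94 days post conception (94 dpc, 6 animals) and offspring 1, 28 and 188 days post natum (1 dpn, 6 animals; 28 dpn, 6 animals; 188 dpn, 4 animals). All were offspring of German Landrace gilts fed an adequate protein diet during gestation, with 3 gilts per stage, so the stages differ in age and share the diet. The sources used here do not tie the animals to their gilts, and p-values treat them as independent.

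The series title names muscle, whereas the tissue label of each sample names liver. The labelled tissue was checked against defining markers. The signal of CKM, the creatine kinase of muscle, lay between 74897 and 86789 at 28 dpn and between 34294 and 44491 at 94 dpc. The signal of ALB, serum albumin of hepatocytes, lay between 10.2 and 3173 at 28 dpn and between 50.6 and 862 at 94 dpc. The background signal, from control probe sets with absent targets, was 69.7. The 14 measured liver markers had summed signals from 7999 to 55051 at 94 dpc, so not all were dim. The 11 measured skeletal muscle markers had sums from 316921 to 408698 there. ALB was thus below background on some arrays of these 2 stages and CKM far above it on all of them, which goes against the liver label. The tissue is called muscle here as in the title. In bulk tissue, fewer cells of a type and less RNA per cell cannot be told apart.

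Glycolysis runs in the cytosol of every cell, and several of its steps are catalysed by forms of an enzyme that adult muscle uses in place of a more widely expressed form. GPI turns glucose phosphate into fructose phosphate, and PFKM, the muscle form of phosphofructokinase, adds the next phosphate in the main regulated step of the pathway. GAPDH oxidises the triose phosphate and makes NADH, PGAM2 is the muscle form of phosphoglycerate mutase, and ENO3 is the muscle form, or beta subunit, of enolase. GPD1 is no glycolytic enzyme in the strict sense: it is the cytosolic glycerol phosphate dehydrogenase, which leaves the pathway at dihydroxyacetone phosphate, regenerates NAD and feeds glycerol phosphate to a mitochondrial shuttle or to lipid synthesis.

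Signals are linear and had been scaled by the submitters so that the trimmed mean of each array was 500. Changes are differences of log2(signal + 16), which understates the change of dim genes, and a gene was called when its limma p-value, adjusted over all 23999 probe sets, was under 0.05. For GAPDH the brightest probe set stands for the gene unless another is named. The others were Ssc.2375.1.S1_at for GPI, Ssc.4741.1.S1_at for PFKM, Ssc.11143.1.S1_at for PGAM2, Ssc.10942.1.S1_at for ENO3 and Ssc.5657.1.S1_at for GPD1. The arrays were not alike in quality. On 1 dpn replicates 2, 3, 4 and 5 the 3'/5' signal ratio of the array's GAPDH control was 3.01, 4.48, 3.83 and 7.16. The other 18 arrays had ratios between 0.795 and 1.37. On the same 4 arrays the actin ratio was 25.9, 30.8, 29.4 and 32.6, against 4.20 to 10.3 on the other 18. Their EF1A ratio was 6.84, 8.42, 9.85 and 8.01, against 1.05 to 1.87 on the other 18. A second GAPDH control was less apart, at 1.49, 1.62, 1.61 and 2.02 on these 4 arrays and up to 1.71 at 28 dpn. The ratio of the added dap control was 11.8 to 18.9 on these 4 arrays, 10.4 to 16.1 at 94 dpc and 2.46 to 2.81 at 28 dpn. At 94 dpc and 28 dpn the actin ratio was 6.99 to 10.1 and 4.20 to 6.79. The EF1A ratio went the other way, with medians of 1.09 and 1.41. So did that of the second GAPDH control, at 1.24 and 1.57. The dap ratio was not used as a covariate. The hybridisation controls, transcripts of other organisms that are added in fixed amounts, were not level across the stages either. The mean log2 signal of their 27 probe sets was 1.22 higher at 1 dpn than at 94 dpc and 0.83 higher at 28 dpn than at 94 dpc.

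All 6 genes differed with stage (F test over the 4 stages, adjusted p between 1.46e-10 and 0.00266), as did 51.4% of all probe sets. From 94 dpc to 28 dpn all 6 were higher, by 9.57-fold for PFKM, 8.20-fold for GPI, 7.17-fold for GPD1, 2.97-fold for PGAM2, 2.76-fold for ENO3 and 1.73-fold for GAPDH. The background share of probe sets called higher in that comparison was 13.1%. Of the 425 probe sets with a mean signal over 10000, 57.2% were called higher. For each of the 6 genes the lowest array at 28 dpn lay above the highest array at 94 dpc. The share of all probe sets without overlap was not computed. Between 28 and 188 dpn none of the 6 was called in either direction. The rises of GPI, PFKM, PGAM2, ENO3 and GPD1 from 94 dpc to 28 dpn were called under every alternative tried, whereas that of GAPDH changed sign under quantile normalization and under centring on the hybridisation controls.

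**Figure D1:**
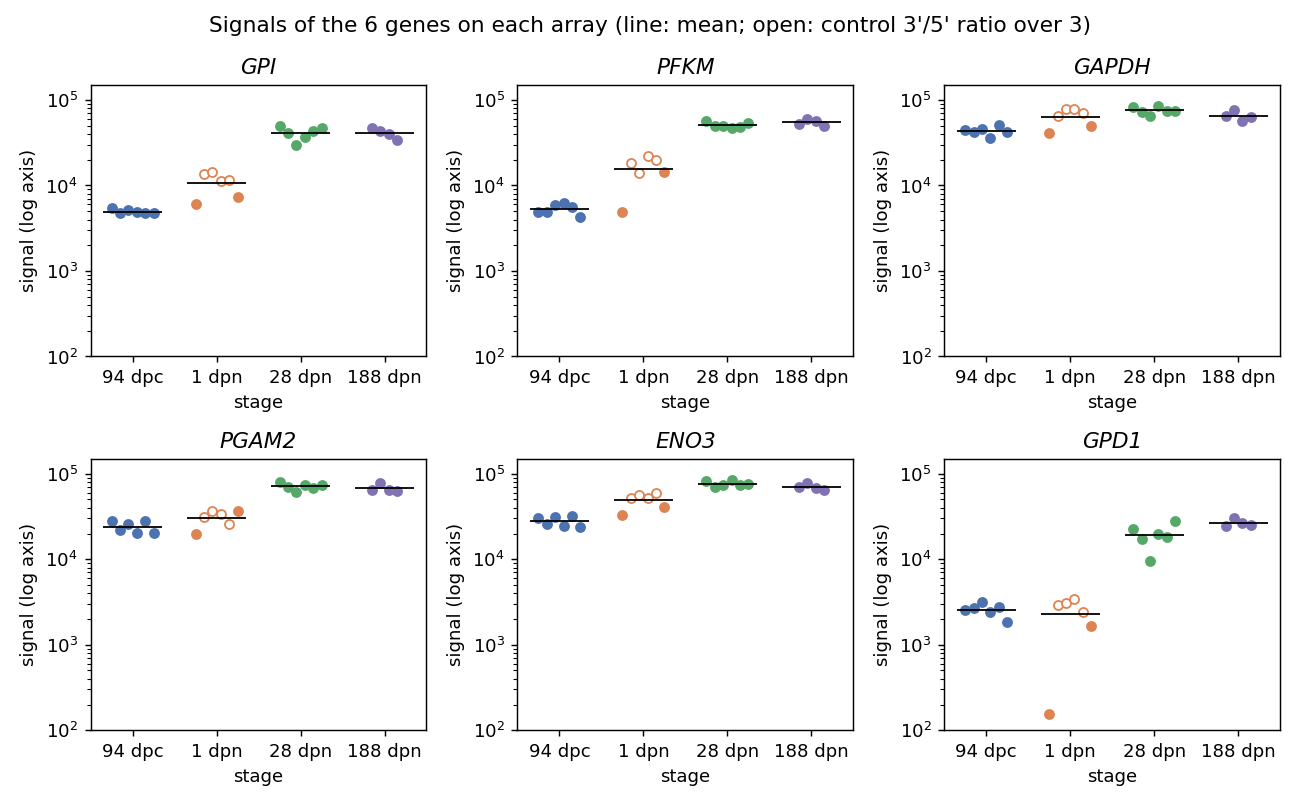
Signal of each gene on each array (log axis) against stage, 1 point per animal, with the mean of the stage as a line. Open points are the 1 dpn arrays with a GAPDH control 3'/5' ratio over 3. All 6 genes have their 28 dpn arrays above their 94 dpc arrays, and 1 dpn replicate 1, drawn leftmost at its stage, is the lowest 1 dpn array for each gene.

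GPI and PFKM were called higher in both steps before 28 dpn as deposited. GPI had signals from 4727 to 5383 at 94 dpc (median 4841), from 6105 to 14407 at 1 dpn (median 11466), from 29472 to 50133 at 28 dpn (median 42178), and of 46805, 43264, 39913 and 33710 in the 4 animals at 188 dpn. The arrays of 94 dpc, 1 dpn and 28 dpn did not overlap, and the 188 dpn arrays lay within the 28 dpn range. GPI was higher by log2 1.05 at 1 dpn than at 94 dpc (95% interval 0.64 to 1.46, adjusted p = 0.000259) and by log2 1.99 at 28 dpn than at 1 dpn (1.58 to 2.39, adjusted p = 4.11e-07). The newborn call of GPI was lost with the 4 uneven 1 dpn arrays left out (0.44, adjusted p = 0.126) and with centring on the hybridisation controls (−0.17, adjusted p = 0.36). PFKM had signals from 4250 to 6191 at 94 dpc (median 5226), from 4905 to 22354 at 1 dpn (median 16326), from 46618 to 56099 at 28 dpn (median 49077), and of 52076, 59595, 57232 and 49869 at 188 dpn. At 1 dpn replicate 1 had 4905, inside the 94 dpc range, and the next lowest array had 14036. The PFKM difference was log2 1.43 for 1 dpn over 94 dpc (0.91 to 1.96, adjusted p = 0.000141) and log2 1.82 for 28 dpn over 1 dpn (1.30 to 2.35, adjusted p = 2.12e-05). Its newborn call was lost under the same 2 settings (0.68, adjusted p = 0.0823, and 0.22, adjusted p = 0.315). With the GAPDH control ratio as a covariate neither newborn difference was called (0.50 for GPI and 0.76 for PFKM).

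PGAM2 and ENO3, both muscle forms, rose by less than the mean of the other members from 94 dpc to 28 dpn (tests are given with those of the whole group). Both were brighter at 94 dpc than GPI, PFKM and GPD1, and the part of brightness in the smaller rise was not tested. PGAM2 had signals from 20163 to 28245 at 94 dpc (median 23918), from 19797 to 36920 at 1 dpn (median 32610), from 60652 to 79439 at 28 dpn (median 71573), and of 65349, 78789, 64710 and 63288 at 188 dpn. The newborn and fetal arrays overlapped, and the difference of log2 0.33 for 1 dpn over 94 dpc was not called (adjusted p = 0.131). From 1 dpn to 28 dpn PGAM2 rose by log2 1.24 (0.90 to 1.58, adjusted p = 1.27e-05) without overlap. ENO3 had signals from 23558 to 31906 at 94 dpc (median 28098), from 32735 to 58875 at 1 dpn (median 52215), from 70417 to 84503 at 28 dpn (median 74327), and of 69241, 78721, 67680 and 65132 at 188 dpn. As deposited it was higher in both steps without overlap, by log2 0.79 for 1 dpn over 94 dpc (0.47 to 1.11, adjusted p = 0.00042) and by log2 0.68 for 28 dpn over 1 dpn (0.36 to 1.00, adjusted p = 0.00266). The newborn step of ENO3 was 0.39 and not called with the 4 uneven 1 dpn arrays left out (adjusted p = 0.118), 0.29 and not called after quantile normalization, 0.43 and not called with the GAPDH control ratio as a covariate, and it was called lower, at −0.43, with centring on the hybridisation controls (adjusted p = 0.0107).

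GPD1 alone among the 6 had a lower mean at 1 dpn than at 94 dpc, and then the largest step of the set. Its signals ran from 1827 to 3127 at 94 dpc (median 2626), from 154 to 3402 at 1 dpn (median 2655) and from 9560 to 27939 at 28 dpn (median 18935), and were 24777, 30675, 26318 and 25388 at 188 dpn. The log2 difference of −0.61 for 1 dpn over 94 dpc was not called (−1.64 to 0.41, adjusted p = 0.375) and rested on 1 animal: replicate 1 had 154, the next lowest 1 dpn array 1642, and without it the difference was 0.04. From 1 dpn to 28 dpn GPD1 rose by log2 3.46 (2.43 to 4.48, adjusted p = 3.06e-05), or 11.0-fold, and without 1 dpn replicate 1 by 2.80. Adipocytes also express GPD1, and of 12 adipocyte markers 8 had a named probe set. Of these, ADIPOQ and CFD rose from 1 dpn to 28 dpn, by log2 1.54 and 1.27, and none fell. In that step 13.9% of all probe sets were called higher and 8.39% lower. The summed adipocyte marker signal ranged from 5074 to 8367 at 94 dpc, from 10677 to 19227 at 1 dpn, from 9370 to 16678 at 28 dpn and from 7505 to 17651 at 188 dpn. The part of adipocytes in the GPD1 result was not tested. The adiponectin probe set ADIPOQ had a median of 225 at 28 dpn and of 45.0, below background, at 94 dpc.

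GAPDH, often taken as a reference gene of constant level, gave different answers by probe set. The brightest, Ssc.14942.1.S1_at, had signals from 36079 to 51446 at 94 dpc (median 43254), from 40667 to 78041 at 1 dpn (median 67719), from 64505 to 84427 at 28 dpn (median 73958), and of 65105, 75967, 57162 and 63511 at 188 dpn. Its difference was log2 0.51 for 1 dpn over 94 dpc (0.17 to 0.86, adjusted p = 0.0203), 0.28 for 28 dpn over 1 dpn (not called, adjusted p = 0.258) and 0.79 for 28 dpn over 94 dpc (0.45 to 1.13, adjusted p = 0.000917). The second bright set, Ssc.14942.1.S1_s_at, differed by log2 0.72 in that last comparison (adjusted p = 0.00201), and its suffix marks probes that match more than a single transcript. The dimmer set Ssc.1035.1.S1_at had signals from 893 to 1418 at 94 dpc (median 1241), from 696 to 5219 at 1 dpn (median 4974), from 10359 to 29259 at 28 dpn (median 24393), and of 25488, 23006, 20321 and 15386 at 188 dpn. It was 18.4-fold higher at 28 dpn than at 94 dpc (log2 4.20, 3.43 to 4.98, adjusted p = 3.16e-08). Ssc.16135.1.S1_at, with means of 1897 at 28 dpn and 198 at 94 dpc, was 8.93-fold higher (log2 3.16, adjusted p = 5.09e-12). The last set, Ssc.16135.1.A1_at, had stage means between 63.3 and 108, near background, and was called in none of the 5 comparisons. The 4 brighter sets therefore rose together from 94 dpc to 28 dpn with changes between log2 0.72 and 4.20, and their intervals do not overlap between the bright pair and the dim pair. Which of these follows the GAPDH transcript was not tested.

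**Figure D2:**
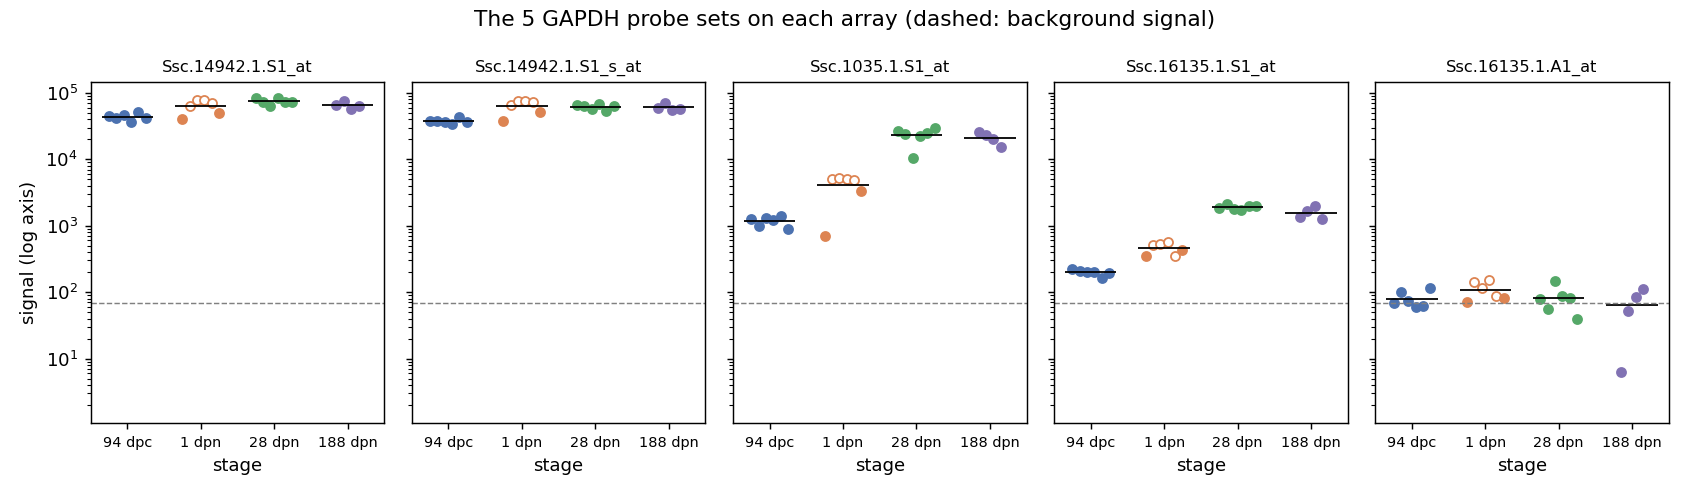
Signal of each of the 5 GAPDH probe sets on each array (log axis) against stage, with the stage mean as a line, the background signal of 69.7 as a dashed line, and open points for 1 dpn arrays with a control 3'/5' ratio over 3. The pair at the left changes by less than 2-fold from 94 dpc to 28 dpn, the next sets by 18.4-fold and 8.93-fold, and the last stays near background.

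The small change of the bright GAPDH sets was of the size of the drift in the added controls. The cre hybridisation control, a bacteriophage transcript, had signals from 26148 to 36690 at 94 dpc (median 30560), from 35937 to 71723 at 1 dpn (median 64194), from 49756 to 60924 at 28 dpn (median 53726) and from 44560 to 52279 at 188 dpn (median 49672). Its log2 difference was 0.92 for 1 dpn over 94 dpc and 0.84 for 28 dpn over 94 dpc, against 0.51 and 0.79 for GAPDH. With each array centred on its 27 hybridisation controls, a setting chosen after the data were seen, the GAPDH difference was −0.70 for 1 dpn over 94 dpc (adjusted p = 0.000159), −0.04 for 28 dpn over 94 dpc (adjusted p = 0.825) and −0.0035 for 188 dpn over 94 dpc (adjusted p = 0.989). Quantile normalization gave −0.10, −0.05 and −0.14 in the same 3 comparisons, none of them called. The other 2 clear GAPDH sets kept their rise from 94 dpc to 28 dpn under both scalings, at 3.37 or more for Ssc.1035.1.S1_at and at 2.33 or more for Ssc.16135.1.S1_at. Of 425 probe sets with a mean signal over 10000, 58.6% were called higher at 1 dpn than at 94 dpc and 57.2% at 28 dpn than at 94 dpc, with median log2 differences of 0.55 and 0.66, whereas the median over all probe sets was −0.08 and 0.02. From 1 dpn to 28 dpn their median was 0.11, while the hybridisation controls differed by −0.39. How far the controls' drift enters the bright probe sets was not tested.

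In the step from 94 dpc to 1 dpn 4 of the 6 genes were called higher (GPI, PFKM, GAPDH and ENO3) and none lower, with 10.9% of all probe sets called higher. This count turned with the arrays and the scaling. With the 4 uneven 1 dpn arrays left out, leaving replicates 1 and 6, the differences were 0.44 for GPI, 0.68 for PFKM, 0.06 for GAPDH, 0.18 for PGAM2 and 0.39 for ENO3, none called, and GPD1 was called lower at −2.26 (adjusted p = 0.00484). Without the 2 arrays with the most liver and pancreas signal, 94 dpc replicate 1 and 1 dpn replicate 3, the GAPDH difference was 0.46 and not called (adjusted p = 0.0728). It was likewise not called without 94 dpc replicate 4, 1 dpn replicate 3 or 1 dpn replicate 4 (adjusted p between 0.0516 and 0.0521). Replicate 1 is 1 of the 2 even arrays and holds the lowest value of all 6 genes at 1 dpn. With centring on the hybridisation controls, GAPDH, PGAM2, ENO3 and GPD1 were called lower at 1 dpn and GPI and PFKM were not called, at −0.17 and 0.22. The part of RNA quality and of scaling in the newborn values was not tested beyond these settings.

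In the step from 1 dpn to 28 dpn 5 of the 6 were called higher (GPI, PFKM, PGAM2, ENO3 and GPD1) with 13.9% of all probe sets called higher. Of the 425 probe sets with a mean signal over 10000, 24.9% were called higher. These 5 genes had no overlap between the stages, and the share of all probe sets without overlap was not computed. The count stayed at 5 when any single array was left out. With the 4 uneven arrays left out all 6 were called higher, GAPDH by 0.73 (adjusted p = 0.00935), PFKM by 2.58 and GPI by 2.60. With centring on the hybridisation controls all 6 were likewise called higher, GAPDH by 0.66 and ENO3 by 1.07.

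In the step from 28 dpn to 188 dpn, where 3.65% of probe sets were called higher and 8.2% lower, 0 of the 6 genes were called by limma and 0 at an unadjusted p under 0.05. The log2 differences ran from −0.21 for GAPDH (95% interval −0.59 to 0.18) to 0.55 for GPD1 (−0.60 to 1.70). The interval of GPI was −0.46 to 0.45. Relative to the other members 3 of the 6 were called in this step, as given with those tests. From 94 dpc to 188 dpn all 6 were called higher, with 13.6% of all probe sets called higher, by log2 3.39 for GPD1, 3.38 for PFKM, 3.03 for GPI, 1.51 for PGAM2, 1.34 for ENO3 and 0.58 for GAPDH (adjusted p = 0.0159 for GAPDH, 0.0612 without 188 dpn replicate 2). The 28 and 188 dpn comparisons share the 94 dpc arrays, so their likeness is no independent result.

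**Figure D3:**
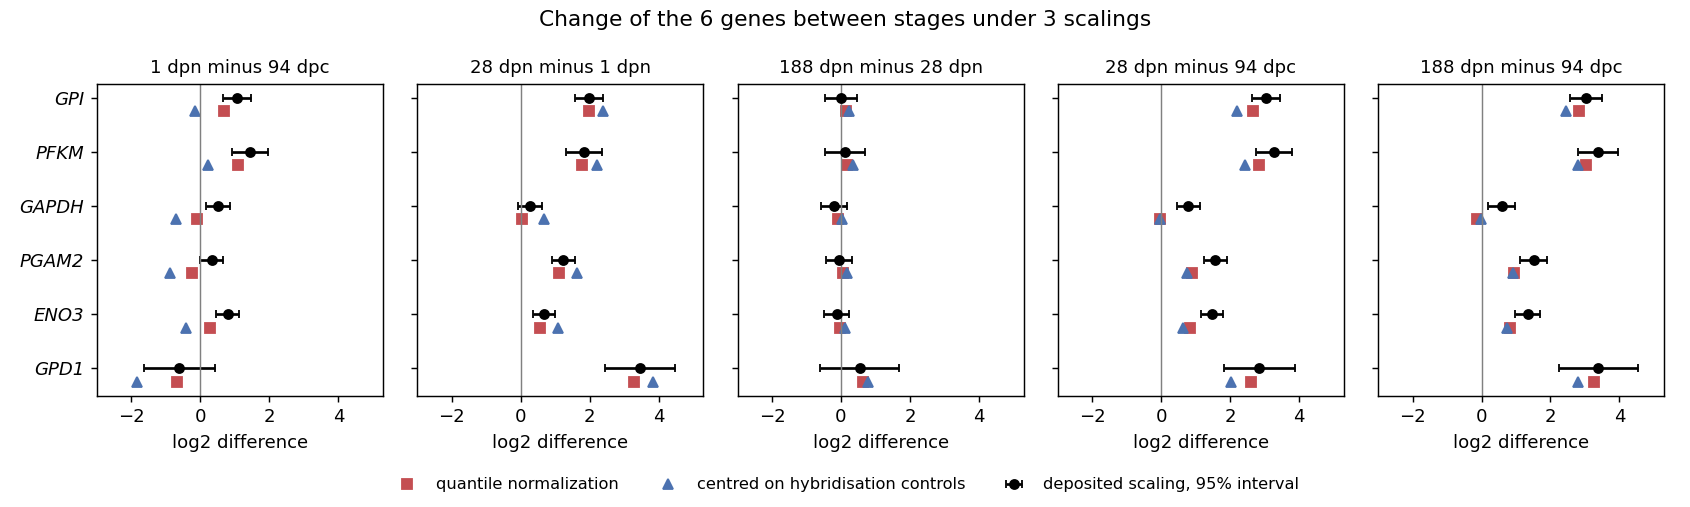
Log2 difference of each gene in the 5 comparisons (horizontal axis, later stage minus earlier stage), with the 95% interval of the limma fit for the deposited scaling and the point values under quantile normalization and under centring on the hybridisation controls. GPI, PFKM and GPD1 lie above 2 in 28 dpn minus 94 dpc under all 3 scalings, GAPDH lies on either side of 0 there, and in 1 dpn minus 94 dpc the scalings disagree in sign for GPI, GAPDH, PGAM2 and ENO3.

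The signal as a share of the highest signal on the same array does not depend on the factor by which an array was scaled. That highest signal was taken over all probe sets, the array's controls included, and which probe set held it was not recorded. The highest signal of an array was between 44618 and 59969 at 94 dpc, between 54177 and 102091 at 1 dpn, between 92049 and 111760 at 28 dpn and between 78957 and 95337 at 188 dpn. Mean shares of it are given in the order 94 dpc, 1 dpn, 28 dpn and 188 dpn, and describe a probe set over time, not the amount of 1 transcript against another. GPI stood at 9.74, 13.1, 40.9 and 46.5%, and PFKM at 10.4, 18.6, 50.1 and 62.2%. GPD1 stood at 5.01, 2.59, 18.9 and 30.5%. These 3 thus stood several times higher within their arrays at 28 dpn than at 94 dpc. PGAM2 stood at 46.8, 38.5, 70.3 and 77.3%, and ENO3 at 54.3, 60.0, 75.9 and 79.8%. GAPDH stood at 85.0, 77.7, 74.6 and 74.5%, with all 28 dpn arrays between 69.1 and 78.9% and all 94 dpc arrays between 80.9 and 88.9%. Within its array the bright GAPDH set thus stood lower at 28 dpn than at 94 dpc without overlap, while its scaled signal was higher.

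**Figure D4:**
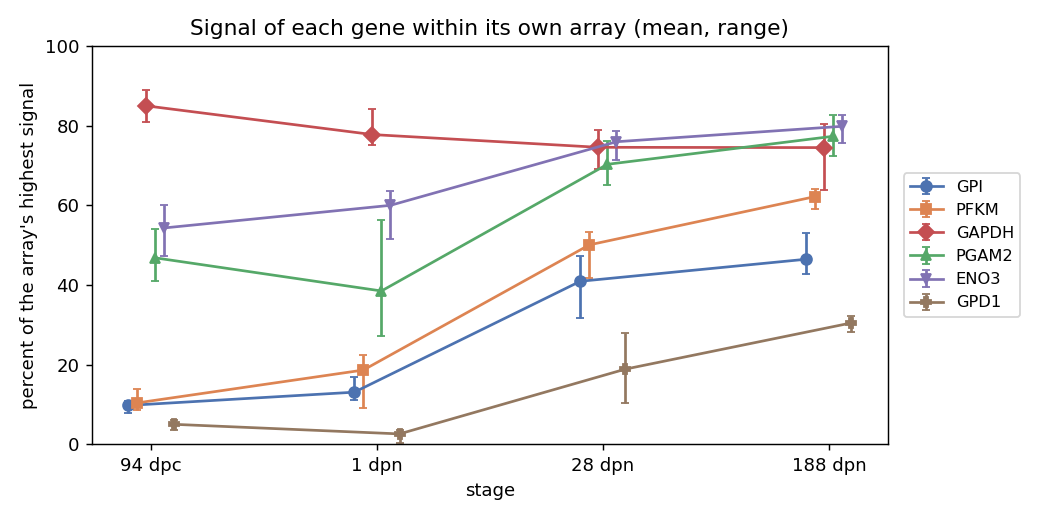
Signal of each gene as a percent of the highest signal on the same array (vertical axis) against stage, as mean and range over the animals. GPI, PFKM, PGAM2, ENO3 and GPD1 stand higher at 28 and 188 dpn than at 94 dpc and GAPDH stands lower. Heights of different genes are not comparable amounts.

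Whether a gene moved by a different amount from the rest of the group was tested on the per-array log2 difference between the gene and the mean of the other 5, which cancels the scaling of an array, with an exact two-sided permutation test of the animals and adjustment over 30 tests. The smallest p the test allows is 0.00216 for 6 against 6 animals and 0.00476 for 4 against 6. Of the 30 tests, 22 were called. For 28 dpn over 94 dpc, PFKM rose by 1.32 and GPI by 1.05 more than the mean of the others (exact permutation test, adjusted p = 0.00649 each), and GPD1 by 0.82 (adjusted p = 0.0108). In the same comparison GAPDH fell by 1.64, ENO3 by 0.83 and PGAM2 by 0.71 relative to the others (exact permutation test, adjusted p = 0.00649 each). With the mean of its 5 probe sets in place of the brightest, the GAPDH value was −0.67. For 1 dpn over 94 dpc, GPD1 fell by 1.44 relative to the others (exact permutation test, adjusted p = 0.00649), with no overlap between the stages, and by 0.94 without 1 dpn replicate 1 (adjusted p = 0.0059). For 188 dpn over 28 dpn, GAPDH fell by 0.30 (exact permutation test, adjusted p = 0.015, no overlap) and PGAM2 by 0.13 (adjusted p = 0.0455) relative to the others, and GPD1 rose by 0.61 (adjusted p = 0.0408). The GAPDH call was lost without 188 dpn replicate 3 (−0.24, adjusted p = 0.0536), that of GPD1 without any single 188 dpn array, and that of PGAM2 without any single 188 dpn array or without 28 dpn replicate 1, 2, 3, 4 or 5. The 6 values of an array are not independent, since each gene enters the mean set against the others. The difference cancels a factor common to an array, but not a scale that differs between bright and dim probe sets. Mean signals at 94 dpc were 43658 for GAPDH, 27869 for ENO3 and 24051 for PGAM2. Those of PFKM, GPI and GPD1 were 5281, 4960 and 2563. The part of this starting brightness in the relative changes was not tested.

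The muscle forms PFKM and ENO3 were set against other forms of the same enzyme, and GPD1 against the related genes GPD1L and GPD2, on the same arrays. The change between stages of their per-array log2 difference was tested with an exact two-sided permutation test. Adjustment was over 25 tests, of which 18 were called. PGAM1 had no named probe set here, so PGAM2 was not compared. For 28 dpn over 94 dpc, PFKM rose by 4.17 relative to PFKL, the liver form, and by 3.69 relative to PFKP, the platelet form (adjusted p = 0.00676 each, no overlap). Both the muscle form and the liver form moved: PFKL had mean signals of 446 at 28 dpn and 860 at 94 dpc, a called fall of log2 0.91. PFKM rose by a further 1.10 relative to PFKL for 188 dpn over 28 dpn (exact permutation test, adjusted p = 0.00916), a step in which PFKM itself was not called and PFKL fell by 0.98 in the limma fit. ENO3 rose relative to ENO1, the widely expressed alpha enolase, by 1.00 for 28 dpn over 94 dpc (exact permutation test, adjusted p = 0.00676) and by 1.83 for 188 dpn over 94 dpc (adjusted p = 0.00916), both without overlap. The step of 0.48 for 1 dpn over 94 dpc was called (exact permutation test, adjusted p = 0.021) but not without any single 94 dpc array, where it was 0.45 to 0.50, and it was 0.28 without 1 dpn replicate 1. GPD1 rose by 2.30 relative to its cytosolic relative GPD1L for 28 dpn over 94 dpc and by 3.19 for 28 dpn over 1 dpn (exact permutation test, adjusted p = 0.00676 each). It fell relative to GPD1L by 0.89 for 1 dpn over 94 dpc (exact permutation test, adjusted p = 0.0135), and by 0.41 without 1 dpn replicate 1. Against GPD2, the mitochondrial partner of the shuttle, the difference of 0.85 for 28 dpn over 94 dpc was not called (exact permutation test, adjusted p = 0.149) and was 0.06 with a pseudocount of 1. GPD1 rose relative to GPD2 by 2.55 for 28 dpn over 1 dpn (exact permutation test, adjusted p = 0.0108), or 1.55 without 1 dpn replicate 1, and by 1.86 for 188 dpn over 94 dpc (adjusted p = 0.021), or 1.11 and not called with a pseudocount of 1 (adjusted p = 0.253). The GPD2 probe set was dim, with mean signals of 166 at 28 dpn and 33.4 at 94 dpc, the second below background. These paired differences also do not cancel a scale that differs between bright and dim probe sets. At 94 dpc the mean signal was 27869 for ENO3 and 5642 for ENO1, and 5281 for PFKM and 860 for PFKL. The part of brightness in the paired changes was not tested.

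**Figure D5:**
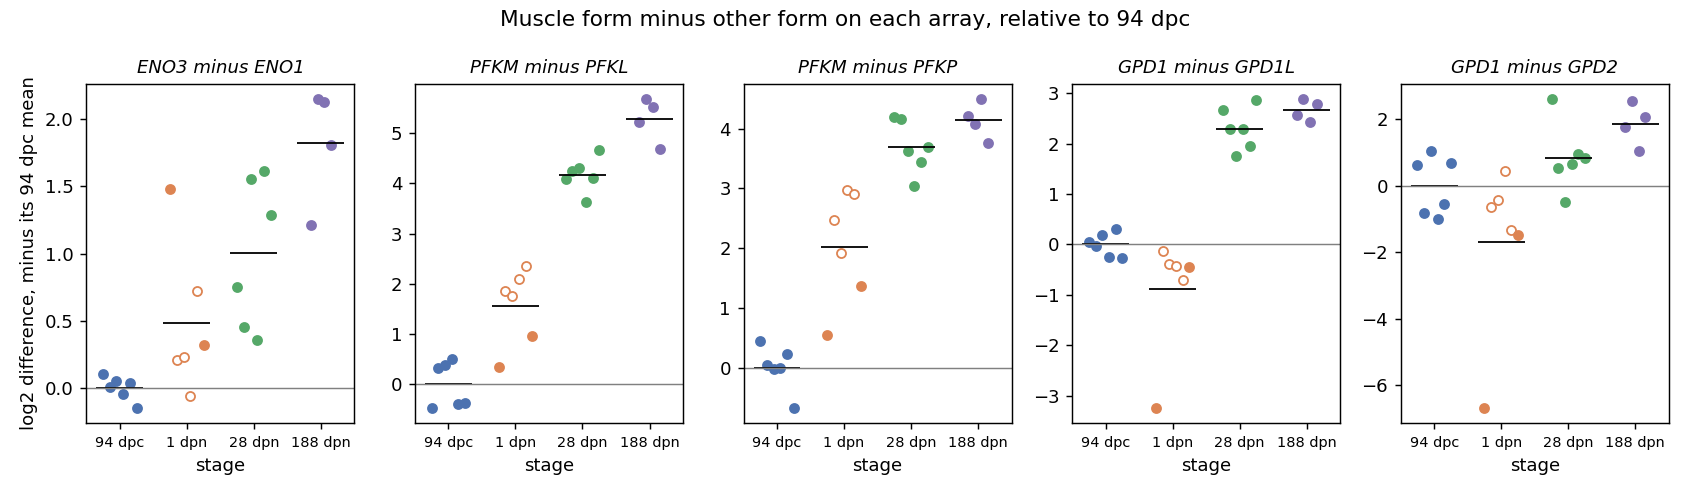
Per-array log2 difference between PFKM, ENO3 or GPD1 and a related gene, minus its mean at 94 dpc (vertical axis, own scale in each panel), against stage. Stage means are lines, and open points are 1 dpn arrays with a control 3'/5' ratio over 3. PFKM against PFKL and PFKP, and GPD1 against GPD1L, have all 28 dpn arrays above all 94 dpc arrays, and 1 dpn replicate 1 is the lowest point for both GPD1 pairs.

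Of 18 other enzymes of the pathway, a list chosen with earlier results known, 12 had a named probe set. For 28 dpn over 94 dpc 4 were called higher and 3 lower, where 17.2% of all probe sets were called lower, with a median log2 difference of 0.36 against 0.02 over all probe sets. The rises were in TPI1, which interconverts the triose phosphates (2.67), LDHA, the lactate dehydrogenase subunit of fast muscle (2.66), PGK1, which makes the first ATP of the payoff phase (2.51), and ALDOC, the brain form of aldolase (1.08, not called with centring on the hybridisation controls). The falls were in HK1, the widely expressed hexokinase (−0.84), PFKL (−0.91) and HK3, whose mean signal was 68.7 at 28 dpn, at background, and 185 at 94 dpc. TPI1, LDHA and PGK1 were called higher in both steps before 28 dpn as deposited. At 1 dpn over 94 dpc 5 were higher (LDHB, ALDOC, TPI1, LDHA and PGK1) and 3 lower (HK1, HK3 and PFKP), where 21.7% of all probe sets were called lower. HK3 and PFKP each lost that call in 6 settings. LDHA lost its newborn call under quantile normalization, with the uneven 1 dpn arrays left out and with either control ratio as a covariate. With centring on the hybridisation controls 0 were higher and 7 lower in that step, so its direction rests on the scaling. For 188 dpn over 28 dpn PKM, the muscle pyruvate kinase, rose by 1.15, and LDHB, the lactate dehydrogenase subunit of heart and slow muscle, fell by 1.33, HK1 by 1.26 and PFKL by 0.98. The PKM set used had means of 859 at 28 dpn and 1916 at 188 dpn. A dimmer PKM set, with means of 112 and 113, differed by 0.05 and was not called. For 188 dpn over 94 dpc 5 were called higher and 5 lower, where 22.5% of all probe sets were called lower. For 28 dpn over 1 dpn 4 were called higher and 1 lower, where 8.39% of all probe sets were called lower, with ENO2 among the rises at a signal near background.

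Of 12 regulators of the flux 6 were measured, and 4 of them were higher at 28 dpn than at 94 dpc and 0 lower. Of all probe sets, 13.1% were called higher and 17.2% lower in that comparison. The 4 regulators were FBP2, the muscle fructose bisphosphatase that opposes PFKM (4.58), PDK4, the mitochondrial kinase that inhibits pyruvate dehydrogenase (4.48), BPGM, which makes bisphosphoglycerate (3.91), and PFKFB4 (0.55, and −0.28 with centring on the hybridisation controls). PFKFB4 makes and removes a regulatory fructose bisphosphate, which is not the product of PFKM. PDK4 had its whole rise by 1 dpn, at 4.76 for 1 dpn over 94 dpc (adjusted p = 2.10e-07), and was not called from 1 dpn to 28 dpn. In the newborn step, where 10.9% of all probe sets were called higher and 21.7% lower, 3 of the 6 were higher and 1, HIF1A, lower. With the uneven 1 dpn arrays left out, or with the GAPDH control ratio as a covariate, 1 was higher and 2 were lower, and FBP2 and BPGM lost their calls. Of 13 NADH shuttle and lactate transport genes 10 were measured. In the newborn step 7 were higher and 0 lower, led by GOT1 (2.97), MDH1 (2.61), SLC25A11 (2.22) and SLC25A12 (2.09), the enzymes and carriers of the malate aspartate shuttle. From 1 dpn to 28 dpn, when GPD1 rose, 1 of the 10 rose, the lactate exporter SLC16A3 (2.76), and 1 fell, MDH1 (−0.69). In that step 13.9% of all probe sets were called higher and 8.39% lower. The MDH1 call was lost in 5 settings, among them the 4 uneven arrays left out. Its sign turned with the actin control ratio as a covariate (0.14). From 28 dpn to 188 dpn, where 8.2% of all probe sets were called lower, 6 of the 10 fell. SLC16A3 by 1.99, GOT1 by 1.53 and MDH1 by 1.15 were among them, while GPD1 was not called.

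Of 12 genes of glucose entry and glycogen breakdown 9 were measured, and for 28 dpn over 94 dpc 7 rose and 2 fell. Of all probe sets, 13.1% were called higher and 17.2% lower in that comparison. PYGM, the muscle glycogen phosphorylase, rose by 2.74, PHKB, a subunit of its kinase, by 2.68, PGM1, which passes the product to GPI, by 2.53, and SLC2A4, the insulin-responsive glucose transporter, by 1.79, which was not called with centring on the hybridisation controls. The transporters SLC2A3 and SLC2A1, found in fetal and many other tissues, fell by 0.99 and 0.89 and are named after their values were seen. Of 12 muscle transcription factors 7 were measured. MYOD1 and MYF5, regulators of myoblasts, fell by 1.19 and 2.00 for 28 dpn over 94 dpc, and MYF6, which adult fibres keep, was called higher for 188 dpn over 28 dpn (2.34) but not for 28 dpn over 94 dpc (−0.02).

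Markers of muscle fibres moved with the 6 genes, and their part in these results was not tested. As deposited, 13.1% of all probe sets were called higher and 17.2% lower at 28 dpn than at 94 dpc. All 11 measured of 14 skeletal muscle markers were higher in that comparison, with a median log2 difference of 0.93, and 0 were called for 188 dpn over 28 dpn. Beside the drift of 0.83 in the hybridisation controls, 2 of the 11 were called higher for 28 dpn over 94 dpc after quantile normalization (median 0.23) and 2 with centring on those controls (median 0.10). Their summed signal ranged from 316921 to 408698 at 94 dpc, from 397855 to 539766 at 1 dpn, from 680492 to 782712 at 28 dpn and from 652051 to 772495 at 188 dpn. Of 12 fast-twitch markers 6 were measured, and all 6 were higher at 28 dpn than at 94 dpc, led by the myosin heavy chain MYH2 (3.40) and the calcium pump ATP2A1 (3.22), and 2 of the 6 under either of those scalings. The fast-twitch and skeletal muscle lists share genes, MYLPF and TNNC2 among them, so their counts are not independent. Of 12 slow-twitch markers 10 were measured, of which 8 were higher and 2 lower in that comparison, 4 and 1 after quantile normalization, and 2 and 2 with centring on the hybridisation controls. From 28 dpn to 188 dpn, where 8.2% of all probe sets were called lower, 0 of the fast and 3 of the slow markers fell. CASQ2 fell by 2.23, TPM3 by 1.37 and MYL3 by 1.35. Liver markers, 14 of 16 measured, had summed signals from 7999 to 55051 at 94 dpc and from 2071 to 13578 at 1, 28 and 188 dpn. For 28 dpn over 94 dpc 1 of the 14 rose and 3 fell, beside the 13.1% and 17.2% of all probe sets. Without the 2 arrays with the most liver and pancreas signal, 94 dpc replicate 1 and 1 dpn replicate 3, the 28 dpn over 94 dpc calls of all 6 genes held. Erythroid markers had 4 of 10 measured and pancreas markers 6 of 10, with 0 rises in either list for 28 dpn over 94 dpc as deposited, and 1 erythroid fall.

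The genes whose course over the 22 arrays was most like that of each member were found by the root mean square difference of centred log2 signals, as a description. Nearest to PFKM were PYGM (0.31), GPI (0.34) and ADSSL1, the adenylosuccinate synthase of muscle (0.38). Nearest to GPI were the GAPDH set Ssc.16135.1.S1_at (0.27), TMOD4, a tropomodulin of muscle (0.28), and UBE2D4 (0.28). Nearest to GAPDH were MYLPF, the fast myosin light chain (0.07), TNNC2, the fast troponin C (0.09), and ZC3H10 (0.09), while the distance of the cre control from GAPDH was 0.18. ENO3 was nearest to EIF1 (0.15), MYOZ1 (0.17) and YBX3 (0.18), and PGAM2 to UBL4A (0.23), TXNDC15 (0.26) and MRPS25 (0.28). GPD1 had no near neighbour, with EGF at 0.70, GAMT, which makes creatine, at 0.71 and ADSSL1 at 0.76. Among the members the closest pair was PGAM2 and ENO3 (0.30) and the farthest GAPDH and GPD1 (1.67). The distances of GPD1, that from GAPDH among them, include 1 dpn replicate 1. Its GPD1 signal there was 154, and the next lowest of that stage was 1642. The distances were not computed without that array. The course of the hybridisation controls was not separated from these distances.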

How the data were processed

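Values for 22 samples were read from the deposited table of array intensity. The submitters' processing notes name GCOS 1.1.1. The labels' protocols describe TRI Reagent extraction with DNase and RNeasy steps, and biotin labelling of cRNA starting with 0.5 µg. The deposited intensity values ran from 1 to 111760, and their mean after trimming 2% at each end was 500.1 to 500.2 on every array. Of 24123 probe sets, 124 controls were left out. Symbols came from the array annotation: 10069 probe sets had 1 symbol, 198 several and 13732 none. Background was the 95th percentile of 23 controls with absent targets.

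The stage fit used log2(signal + 16) and limma 3.58.1 (R 4.3.3), with 1 mean per stage over all arrays and Benjamini-Hochberg adjustment over 23999 probe sets. Differences between probe sets of an array were compared with exact permutation tests in Python 3.11.15 (numpy 2.4.6), two-sided on the absolute difference of means. The code was tested on simulated data. The brightest probe set stood for a gene. The text names every member, the other glycolytic enzymes, up to 4 called genes of each further list and comparison with the largest change, and the 3 nearest genes of each member by course. Marker genes were named after their values were seen. Members and lists were chosen with earlier results of these data known. Alternatives were quantile normalization, centring on the array median, a pseudocount of 1, trended variances, array weights, bright probe sets only, the mean of a gene's probe sets, only the stages compared, control 5'/3' ratios as covariates, arrays left out, and, chosen after the data were seen, centring on the hybridisation controls. Marker lists were refitted under the same settings. The permutation tests were rerun only with a pseudocount of 1, the mean of a gene's probe sets and arrays left out. The number of arrays limits precision.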

Additional observations from a re-analysis of the deposited data

Results flagged for a closer look

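Among the 40 combinations of probe set and stage, 5 held an array that stood apart from the rest of its stage by Dixon's criterion, where chance gives about 1 in 20. Of these, 3 were the same array, 1 dpn replicate 1, and were low: PFKM at 4905 (nearest array 14036), GPD1 at 154 (nearest 1642) and the GAPDH set Ssc.1035.1.S1_at at 696 (nearest 3305). Its GAPDH control 3'/5' ratio was 0.875, within the range of the other stages. Its weight in the fit with array weights, 0.274, was however the lowest of all arrays. A probe set of the cre control had 44837 on it, the lowest at 1 dpn (next 61506). The GAPDH set Ssc.1035.1.S1_at was also low in 28 dpn replicate 3, at 10359 (nearest 22817), an array on which GPD1 had 9560, the lowest of its stage. PGAM2 was high in 188 dpn replicate 2, at 78789 (nearest 65349). The causes were not tested.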

How the results depend on the processing

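From 94 dpc to 1 dpn 4 genes were called, all higher. Quantile normalization left 2, both higher. With the uneven 1 dpn arrays left out, or with the GAPDH control 5'/3' ratio as a covariate, 1 was called, GPD1, and it was lower. Centring on the hybridisation controls called 4, all lower. Leaving out single arrays gave 3 to 5 calls in that step, 5 in 28 dpn minus 1 dpn and 0 in 188 dpn minus 28 dpn. It gave 6 in 28 dpn minus 94 dpc, 5 to 6 in 188 dpn minus 94 dpc and 6 over the 4 stages. It also gave 19 to 24 of the 30 tests of a member against the others and 16 to 19 of the 25 tests of paired genes. Other settings moved these counts by at most 1.5 times, where they were run. The permutation tests of members and of paired genes were rerun only with a pseudocount of 1, the mean of a gene's probe sets and arrays left out. Their dependence on quantile normalization or on the covariates was not tested.

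Signs of values called in either setting turned as follows, and values called in neither, mostly for 188 dpn minus 28 dpn, also crossed 0. For 1 dpn minus 94 dpc, centring on the hybridisation controls gave −0.17 for GPI, −0.70 for GAPDH, −0.89 for PGAM2, −0.43 for ENO3, −0.52 for Ssc.14942.1.S1_s_at, −0.10 for Ssc.16135.1.S1_at and −0.86 for Ssc.16135.1.A1_at, and quantile normalization −0.10 for GAPDH. For 28 dpn minus 94 dpc centring on the controls gave −0.040 for GAPDH and −0.12 for Ssc.14942.1.S1_s_at, and quantile normalization −0.047 and −0.040. For 188 dpn minus 94 dpc the GAPDH values were −0.0035 and −0.14. Against the mean of the other 5, 1 dpn minus 94 dpc, GAPDH was 0.25 by the mean of its probe sets and PGAM2 0.32 without the uneven arrays. The cause was not tested. Scaling also moved the split of all calls: the share that was higher was 33.5% for 1 dpn minus 94 dpc, 62.4% for 28 dpn minus 1 dpn, 30.8% for 188 dpn minus 28 dpn and 37.7% for 188 dpn minus 94 dpc. Quantile normalization made these shares 47.4, 49.8, 44.2 and 48.6%, and centring on medians 57.7, 39.7, 60.1 and 56.2%. No paired analysis was possible because the labels give no replicate numbers shared between stages.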
